A study of Mus musculus with 2 samples.

Results

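Chemokines are small secreted proteins that direct the movement of leukocytes and other cells by acting on G-protein-coupled receptors. Atypical receptors bind the same ligands without activating G proteins and remove, carry or present them. Homeostatic chemokines are made by resting stromal and endothelial cells, whereas inflammatory ones are mostly induced. In the heart, Cxcl12 and its receptors are known from vessels and stroma, and Cx3cr1 and Ccr2 are used to mark resident and recruited macrophages.

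The genes described here are the chemokines and chemokine receptors of the mouse, taken as every gene with a transcript annotated as protein-coding and an official Ccl, Cxcl, Xcl1, Cx3cl1, Ccr, Cxcr, Cx3cr1, Xcr1, Ackr or Ccrl2 name in both deposited quantifications. They are 61 of 55536 mouse genes: 38 ligands, 18 receptors and 5 atypical receptors. One of them, Cxcl11, is annotated as a polymorphic pseudogene with a protein-coding transcript. RNA from whole heart of 2 female B6CASTF1/J mice aged 36 days, first-generation hybrids of C57BL/6J and CAST/EiJ mice, was sequenced as total RNA with synthetic spike-in RNAs, from 300 ng per library. Replicate 2 is the animal numbered 4 and replicate 1 the animal numbered 3. The labels name no treatment, and both mice form 1 group, so the data give levels and the spread between 2 animals, and no contrast between conditions. Levels are TPM, transcript abundances scaled by length, from the first of the 2 quantifications unless the second is named. Detected means that both libraries had a TPM of 1 or more.

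The libraries held 38332179 expected counts in replicate 2 and 39053339 in replicate 1, of which the 61 genes took 9496 and 9382. That is 249 and 242 CPM, counts scaled to the mouse total. A count of 0 allows up to 3 counts, or 0.0786 CPM in replicate 2 and 0.0772 CPM in replicate 1. The 5 cardiomyocyte markers were all detected and summed to 24111 TPM in replicate 2 and 24238 TPM in replicate 1. Erythroid markers, all 6 detected, summed to 11883 TPM in replicate 2 and 36363 TPM in replicate 1, and adipocyte markers, 4 of 5 detected, to 39.7 and 108 TPM, both higher in replicate 1. In whole tissue, fewer cells of a type and less RNA per cell cannot be told apart.

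Sequences of the leading ligands are shown first, because the level of Cxcl12 is divided among protein forms and that of Ccl21a among near-identical gene copies. Cxcl12 (ENSMUSG00000061353.11, chromosome 6, 117168535 to 117181367, plus strand of mm10) encodes 3 forms that share their first 267 coding bases. The alpha form ends there at 89 residues, the beta form adds 4 residues, and the gamma form adds 30 residues, of which 17 are lysine or arginine. The coding ends are given from 30 bases before the point where they part, with the bases after it, stop codon included, in capitals. The capitals lie at chr6:117173580-117173582 for alpha, chr6:117178584-117178598 for beta and chr6:117176087-117176179 for gamma.
Cxcl12 alpha: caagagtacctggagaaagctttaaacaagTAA
Cxcl12 beta: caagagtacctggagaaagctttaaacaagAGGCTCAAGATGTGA
Cxcl12 gamma: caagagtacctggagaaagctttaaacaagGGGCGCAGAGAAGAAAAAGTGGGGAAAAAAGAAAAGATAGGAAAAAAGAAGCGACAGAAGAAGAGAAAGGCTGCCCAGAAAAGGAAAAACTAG

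Ccl21a (ENSMUSG00000094686.1, chromosome 4, 42772860 to 42773993, minus strand) has 4 other annotated copies on the same chromosome, named Gm21541, Gm13304, Ccl21b and Gm10591. Over 399 coding bases, counted from 1 at the start codon, each of the 4 copies differed from Ccl21a by T84A and C194T and by nothing else, an identity of 99.5%. T84A leaves the residue as it is, and C194T makes S65L, the residue by which the serine and leucine forms of mouse Ccl21 are named. Coding bases 67 to 210 are shown with the differing bases in capitals. They span chr4:42773527-42773852 on the minus strand for Ccl21a and chr4:41903751-41904076 on the plus strand for Gm21541, an intron between them left out.
Ccl21a: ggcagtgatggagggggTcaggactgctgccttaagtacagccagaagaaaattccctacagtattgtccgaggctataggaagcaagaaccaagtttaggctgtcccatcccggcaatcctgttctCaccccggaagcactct
Gm21541: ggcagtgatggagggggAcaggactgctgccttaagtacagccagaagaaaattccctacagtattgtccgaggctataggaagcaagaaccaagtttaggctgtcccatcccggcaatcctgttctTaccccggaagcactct
All sequences were read from GENCODE M21 transcripts of mm10.

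Of the 61 genes, 14 were detected, against 11042 of 22015 nuclear protein-coding genes, which is 23.0% against 50.2%. They were 9 of 38 ligands, 2 of 18 receptors and 3 of 5 atypical receptors. A few genes carried most of the level. Cxcl12, Ackr3 and Ccl21a together held 66.4% of the summed TPM of the 61 genes in each library, and in the second quantification 63.7% in replicate 2 and 63.6% in replicate 1. The ligands summed to 86.7 TPM in replicate 2 and 82.2 TPM in replicate 1 (mean 84.4 ± 3.21, SD, n = 2). Atypical receptors summed to 30.5 and 30.1 TPM in replicates 2 and 1, whereas the 18 signalling receptors summed to 5.56 and 6.20 TPM.

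**Figure D1:**
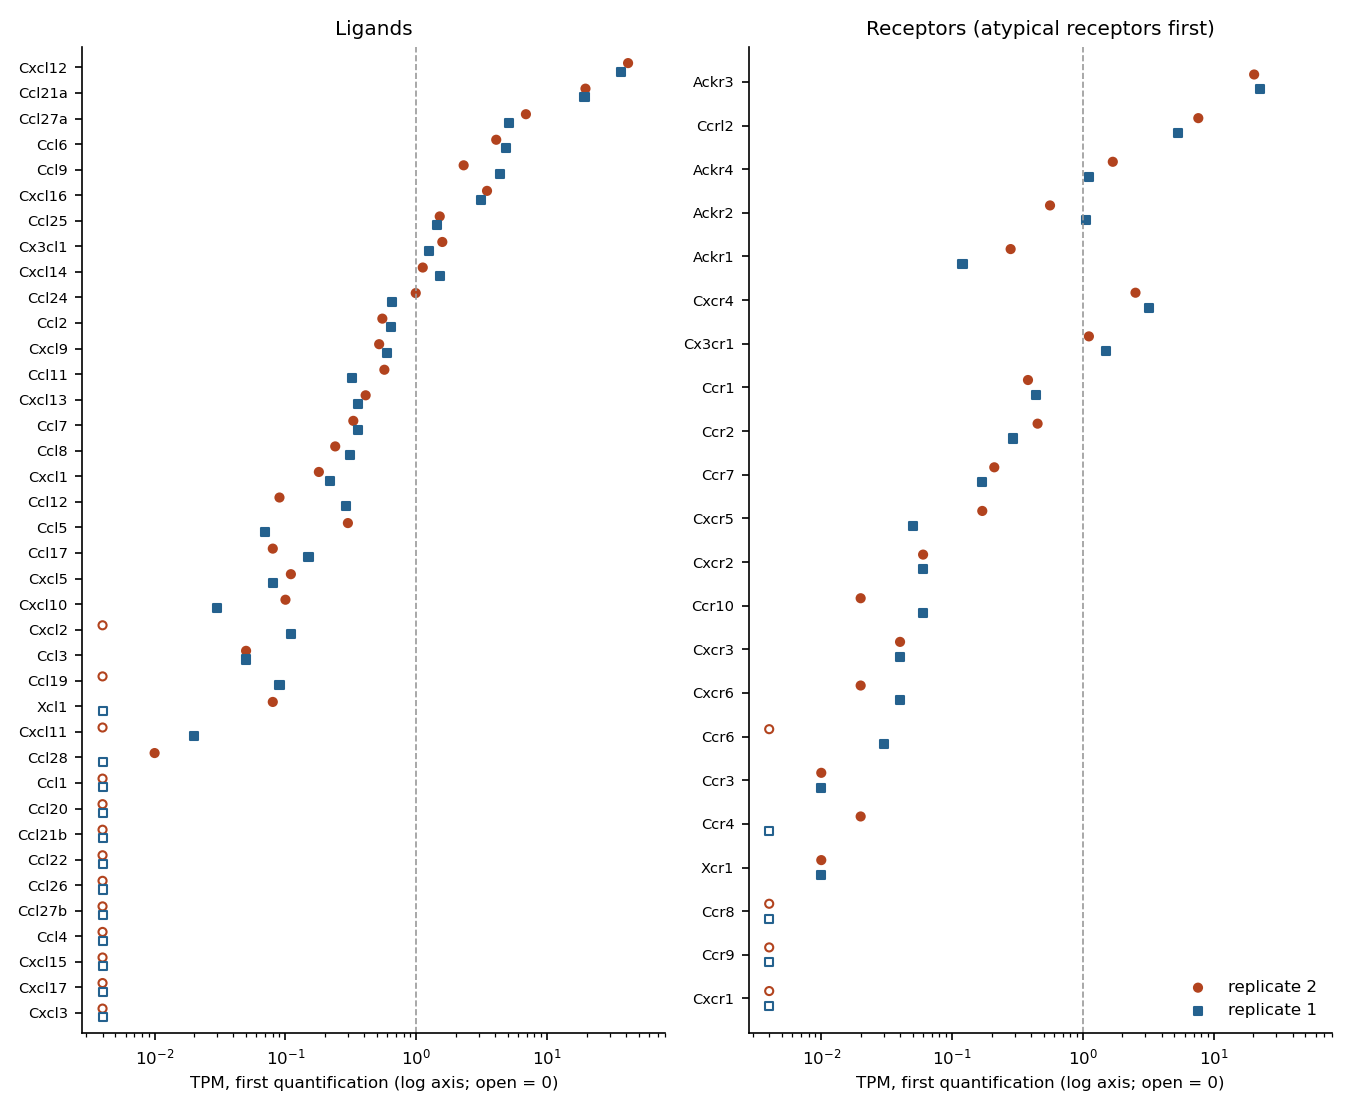
TPM of 60 of the 61 genes (log axis) in replicate 2 (circles, upper) and replicate 1 (squares, lower), with ligands left and receptors right; open symbols are values of 0 and the dashed line is a TPM of 1. Cxcl12 stands highest among ligands and Ackr3 among receptors, and 13 genes have open symbols in both libraries.

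The homeostatic ligands were the main ligand class of this tissue. Of 10 such genes, 5 were detected (Cxcl12, Ccl21a, Ccl27a, Ccl25 and Cxcl14), and the class summed to 71.1 TPM in replicate 2 and 64.7 TPM in replicate 1. Cxcl12, which retains and guides cells that carry Cxcr4, had 41.52 TPM in replicate 2 and 36.90 TPM in replicate 1, from 5456 and 4992 counts, and 43.3 and 39.1 TPM in the second quantification. It ranked 1411th among nuclear protein-coding genes by mean TPM and lay above every other gene of the family in both libraries and both quantifications.

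Most of the Cxcl12 level was assigned to the transcript of the gamma form. Cxcl12-201, a transcript of 5627 bases that encodes the 119 residues of this form, had 24.93 TPM in replicate 2 and 21.94 TPM in replicate 1. This was 59.8% ± 0.414 of the gene's TPM (SD, n = 2), and in the second quantification 75.9% ± 1.41. The alpha transcript Cxcl12-202 held 16.6% ± 0.166, and 19.7% ± 0.163 in the second quantification. The animals thus lay close together in these shares. The quantifications did not: the beta transcript Cxcl12-203 held 21.5% ± 0.352 in the first and 2.53% ± 1.07 in the second. The order of alpha and beta was therefore reversed between the quantifications, while gamma led in both. The long basic tail of gamma is known to bind heparan sulphate.

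**Figure D2:**
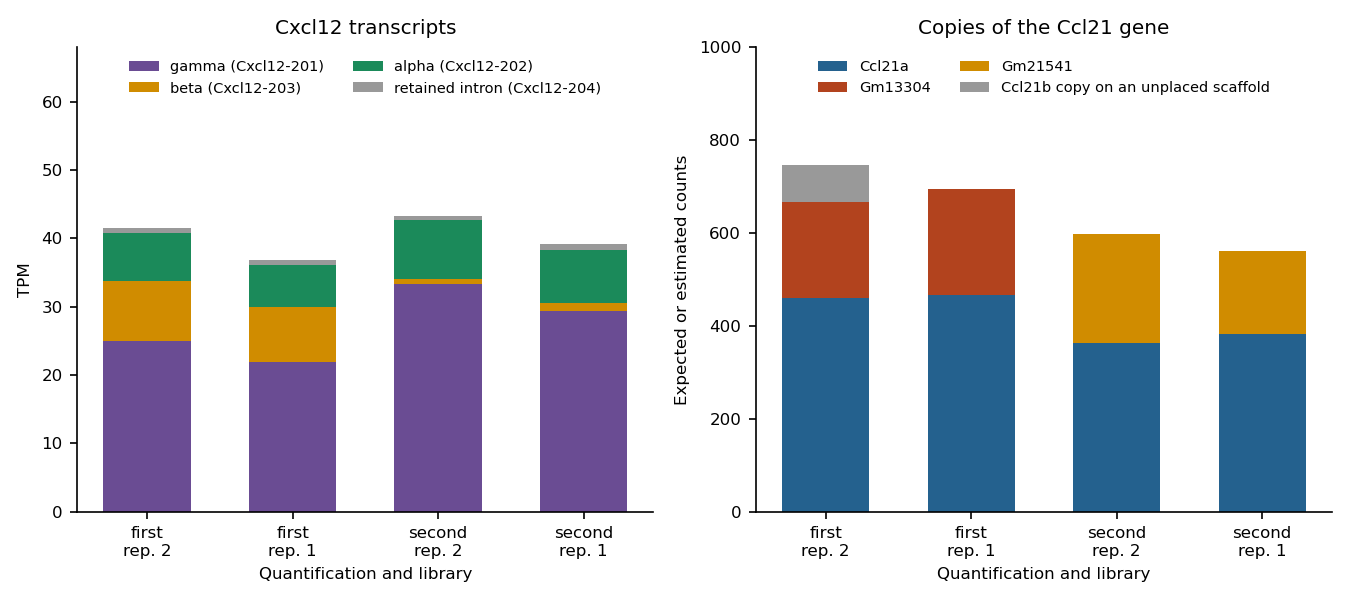
Left, TPM of the 4 Cxcl12 transcripts stacked for each quantification and library; right, expected (first) or estimated (second) counts of the Ccl21 copies with any count, stacked in the same way. The gamma transcript is the tallest segment of every left bar. The copy that takes most of the counts outside Ccl21a is Gm13304 in the first quantification and Gm21541 in the second. A Ccl21b copy on an unplaced scaffold takes 77.6 counts in replicate 2 of the first quantification.

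Ccl21a, a ligand of Ccr7, had 19.62 TPM in replicate 2 and 19.29 TPM in replicate 1, from 461 and 467 counts. The posterior intervals in the authors' table ran from 16.8 to 21.1 TPM in replicate 2 and from 16.7 to 20.7 TPM in replicate 1. The second quantification gave 21.4 TPM in replicate 2 and 21.9 TPM in replicate 1, from 363 and 382 counts. The effective length of its 870-base transcript, by which counts are divided to give TPM, was 771 bases in the first quantification, and 544 and 541 bases in the second. The levels of the quantifications thus lay closer together than the counts.

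Of the 771 windows of 100 bases in the Ccl21a transcript, 388 also occur in transcripts of its copies, and reads from those windows can be assigned only by estimate. The first quantification gave Gm13304 207 counts in replicate 2 and 228 in replicate 1, and Gm21541 none in either. The second gave Gm21541 234 counts in replicate 2 and 180 in replicate 1, and Gm13304 none. Of these copies, the one that received reads thus differed between the quantifications and was the same in both animals. Ccl21b of chromosome 4 and Gm10591 were listed at 0 in both. A further Ccl21b row on the unplaced scaffold GL456350.1, which the second table does not hold, took 77.6 counts in replicate 2 and none in replicate 1.

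Summed over the 9 annotated copies, scaffolds included, the first quantification held 745 counts in replicate 2 and 695 in replicate 1. Ccl21a of chromosome 4 took 61.8% of this sum in replicate 2 and 67.2% in replicate 1, and in the second quantification 60.8% and 67.9%. The copies together reached 32.2 TPM in replicate 2 and 29.1 TPM in replicate 1, above Ackr3 and below Cxcl12. Markers of lymphatic endothelium were all detected (6 of 6) and summed to 35.8 TPM in replicate 2 and 39.1 TPM in replicate 1. Most of this sum came from Prox1, with 20.6 TPM in replicate 2 and 18.6 TPM in replicate 1, and Lyve1, with 5.08 and 8.67 TPM. Lyve1 is also on the macrophage list. The other markers lay between 1.07 and 4.44 TPM in a library. Of 3 matched markers of lymph node stroma none was detected, with sums of 0.11 and 0.06 TPM, and Madcam1 and Glycam1 had no counts. Their part in the level of Ccl21a was not tested.

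The other homeostatic ligands were lower. Ccl27a, known as a skin chemokine that acts on Ccr10, had 6.88 TPM in replicate 2 and 5.10 TPM in replicate 1, from only 88.6 and 72.1 counts. Of its 100-base windows, 26.5% occur in transcripts of other genes, among them Ccl27b, so its level depends on how shared reads were divided. Ccl25, which guides cells to thymus and gut through Ccr9, had 1.51 TPM in replicate 2 and 1.44 TPM in replicate 1. No single transcript carried it. The highest mean share, of Ccl25-209 with a retained intron, was 25.3% ± 4.42, but in replicate 1 Ccl25-208, subject to nonsense-mediated decay, had 0.56 TPM against 0.32 TPM of Ccl25-209. Of its coding transcripts, only Ccl25-201 had any TPM in the first quantification, 0.33 TPM in replicate 2 and 0 in replicate 1. None of 4 thymus markers was detected, and Foxn1, Dntt and Ptcra had no counts.

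Cxcl14, a chemokine of epithelia and stroma, had 1.12 TPM in replicate 2 and 1.51 TPM in replicate 1, all from Cxcl14-201. The homeostatic genes that were not detected were Cxcl13 (0.41 and 0.36 TPM in replicates 2 and 1), which recruits B cells, Ccl19, with 0 and 1.47 counts, and Ccl28, with 1 and 0 counts. Ccl21b and Ccl27b had none.

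None of the 17 listed inflammatory ligands was detected in either quantification. The class summed to 4.03 TPM in replicate 2 and 3.75 TPM in replicate 1, from 106 and 114 counts over all 17 genes. The highest was Ccl24, an eosinophil attractant made by macrophages, with 0.99 TPM in replicate 2 and 0.65 TPM in replicate 1, just under the threshold. It was followed by the monocyte attractant Ccl2, with 0.55 and 0.64 TPM in replicates 2 and 1, and by the interferon-induced Cxcl9, with 0.52 and 0.60 TPM. Each of these rests on at most 39 counts in a library. The platelet chemokine genes Pf4 and Ppbp bear names outside the rule and were not counted in this class. Pf4 had 13.31 TPM in replicate 2 and 16.85 TPM in replicate 1, and Ppbp had 3.14 and 6.01 TPM.

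Ccl11, Ccl7, Ccl8, Cxcl1, Ccl12, Ccl5 and Cxcl5 followed with mean TPM between 0.445 and 0.095. Ccl5, which attracts T cells and monocytes, had 0.30 TPM in replicate 2 and 0.07 TPM in replicate 1, and 0.650 and 0.517 TPM in the second quantification. Cxcl10, Cxcl2, Ccl3 and Cxcl11 had at most 3 counts in each library, and Ccl4, Ccl20 and Cxcl3 had none in the first quantification. For genes at so few counts, absence and a low level could not be told apart at this depth.

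Both membrane-anchored ligands were detected. Cxcl16, which is shed by Adam10 and binds Cxcr6, had 3.47 TPM in replicate 2 and 3.13 TPM in replicate 1. Its leading transcript by mean share in the first quantification was Cxcl16-202, annotated as subject to nonsense-mediated decay, at 53.4% ± 5.54 of the gene. In the second quantification the coding transcript Cxcl16-201 led with 62.6% ± 13.6. In counts, Cxcl16-201 led in the first quantification too, with 109 in replicate 2 and 129 in replicate 1, against 70.85 and 56.95 of Cxcl16-202. Cx3cl1, the endothelial and neuronal ligand of Cx3cr1, had 1.58 TPM in replicate 2 and 1.25 TPM in replicate 1, and 2.05 and 2.36 TPM in the second quantification.

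Ccl6 and Ccl9, mouse chemokines of myeloid cells, stand outside these classes. Ccl6 had 4.08 TPM in replicate 2 and 4.85 TPM in replicate 1, and Ccl9 had 2.30 TPM in replicate 2 and 4.33 TPM in replicate 1. By mean share in the first quantification, the leading transcript of both genes was not annotated as coding: Ccl6-202, with a retained intron, held 56.1% ± 15.7 of Ccl6, and Ccl9-202, a processed transcript of 398 bases, held 60.1% ± 6.51 of Ccl9. The coding Ccl6-201 had 1.34 TPM in replicate 2, below the 2.74 TPM of Ccl6-202, and 2.67 TPM in replicate 1, above its 2.18 TPM. The coding Ccl9-201 had 1.02 TPM in replicate 2 and 1.53 TPM in replicate 1, and it led in the second quantification with 53.9% ± 3.69. In counts, Ccl9-201 led in the first quantification too, with 90.4 in replicate 2 and 140 in replicate 1. The shorter Ccl9-202 had 11.6 and 26.3 counts there, so its lead holds for TPM only. Of the other ligands outside these classes, Ccl17 and Xcl1 had at most 2 counts in a library, and Ccl1, Ccl22, Ccl26, Cxcl15 and Cxcl17 had none.

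Among the receptors, the atypical ones led. Ackr3, which binds Cxcl12 and takes it up (chromosome 1, 90203980 to 90216751), had 20.33 TPM in replicate 2 and 22.46 TPM in replicate 1, of which Ackr3-201 held 96.0% ± 0.378. Its TPM was 8.07 times that of Cxcr4 in replicate 2 and 7.0 times in replicate 1, and 6.79 and 5.39 times in the second quantification. Ackr3 and Ccl21a were not separated in every setting: their values did not overlap in the first quantification but did in the second, where Ackr3 had 21.2 TPM in replicate 2 and 23.7 TPM in replicate 1.

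Ccrl2, which binds the attractant chemerin and presents it, had 7.61 TPM in replicate 2 and 5.30 TPM in replicate 1. Rarres2, which encodes chemerin, had 36.3 TPM in replicate 2 and 35.2 TPM in replicate 1, and its signalling receptor Cmklr1 had 8.54 and 12.7 TPM. Ackr4, the scavenger of Ccl19, Ccl21 and Ccl25, had 1.69 TPM in replicate 2 and 1.11 TPM in replicate 1. Ackr2, which removes inflammatory CC chemokines, had 0.56 TPM in replicate 2 and 1.06 TPM in replicate 1, and so passed the threshold in replicate 1 alone. Ackr1, the Duffy antigen receptor, had 0.28 TPM in replicate 2 and 0.12 TPM in replicate 1, on 9 and 4 counts.

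Cxcr4 and Cx3cr1 were the signalling receptors that passed. Cxcr4, the signalling receptor of Cxcl12, had 2.52 TPM in replicate 2 and 3.21 TPM in replicate 1. Cx3cr1, a receptor of resident macrophages and monocytes, had 1.11 TPM in replicate 2 and 1.49 TPM in replicate 1. Its transcripts each encode 354 residues, and the quantifications gave different leaders, Cx3cr1-201 with 77.9% ± 31.2 in the first and Cx3cr1-203 with 40.7% ± 6.03 in the second.

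Ccr1 and Ccr2, receptors of recruited myeloid cells, lay below the threshold. Ccr1 had 0.38 TPM in replicate 2 and 0.44 TPM in replicate 1, and Ccr2 had 0.45 TPM in replicate 2 and 0.29 TPM in replicate 1.

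Lymphocyte and dendritic cell receptors were near the limit of the depth. Ccr7, the receptor of Ccl19 and Ccl21, had 12 counts in replicate 2 and 10 in replicate 1, and the B cell receptor Cxcr5 had 7 and 4. The neutrophil receptor Cxcr2 had 5 counts in replicate 2 and 6 in replicate 1, and 17.8 and 20.2 estimated counts in the second quantification. Cxcr3, Ccr10, Cxcr6, Ccr6, Xcr1, Ccr4 and Ccr3 had at most 3 counts in each library, and Ccr8, Ccr9 and Cxcr1 had none in the first quantification. Beside them, none of the 6 T cell markers was detected, with sums of 1.01 TPM in replicate 2 and 0.75 TPM in replicate 1. None of the 5 dendritic cell markers was either, with sums of 0.48 and 0.18 TPM. Of 5 B cell markers 1 was detected, Ighm, with 3.43 TPM in replicate 2 and 4.21 TPM in replicate 1. None of 5 neutrophil markers was detected, with sums of 2.45 and 2.47 TPM. The part of these cell types in the receptor levels was not tested.

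Each ligand can be set against its receptor on the TPM scale. Cxcl12 was 16.5-fold above Cxcr4 in replicate 2 and 11.5-fold above it in replicate 1, but 2.04-fold and 1.64-fold above Ackr3. Ccl21a and Ccl19 together were 11.6-fold above their scavenger Ackr4 in replicate 2 and 17.5-fold above it in replicate 1, and Ccr7 lay lower still. This ligand sum leaves out the other Ccl21 copies, which had 12.5 TPM in replicate 2 and 9.82 TPM in replicate 1. Ackr4 was 8.05-fold above Ccr7 in replicate 2 and 6.53-fold in replicate 1. Cx3cl1 was 1.42 times Cx3cr1 in replicate 2 and 0.839 times in replicate 1, so their order differed between the animals, whereas the second quantification gave 1.72 and 1.40 times. Ccl2, Ccl7 and Ccl12 together had 0.97 TPM in replicate 2 and 1.29 TPM in replicate 1 beside the 0.45 and 0.29 TPM of Ccr2. The detected ligands Cxcl16, Ccl27a and Ccl25 stood beside receptors (Cxcr6, Ccr10 and Ccr9) with at most 3 counts in a library in the first quantification. In the second, Ccr9 had 6.5 estimated counts in replicate 2 and 8 in replicate 1.

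**Figure D3:**
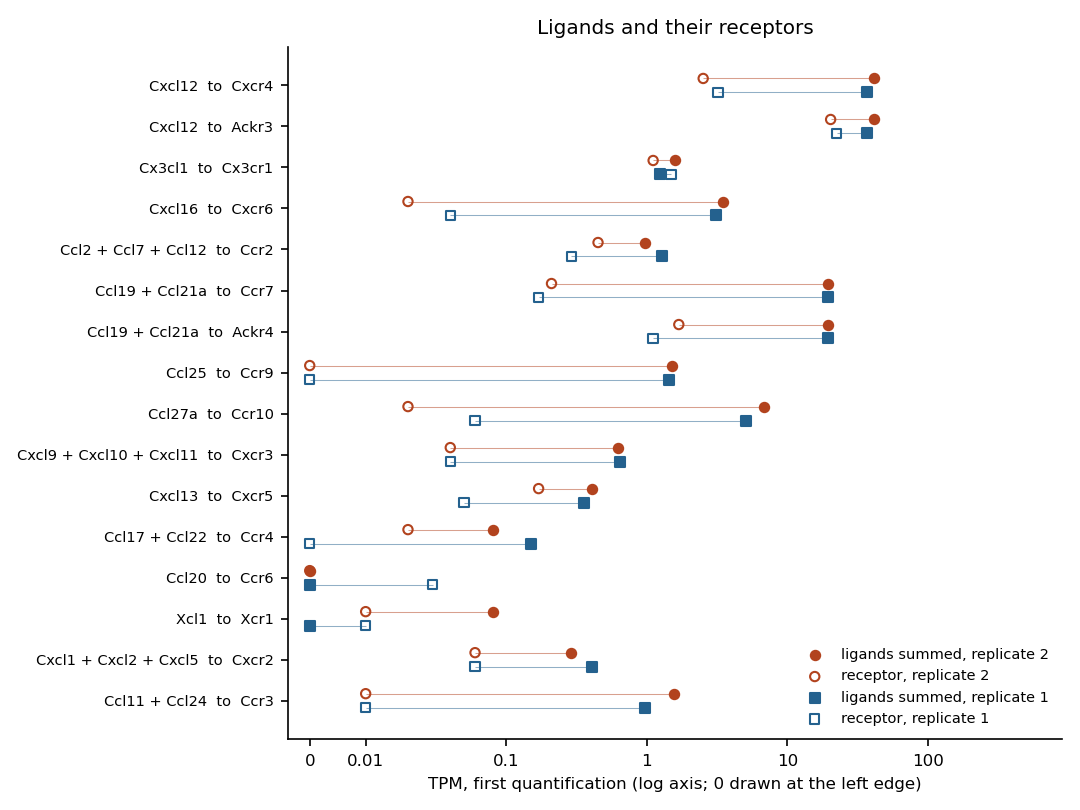
TPM (log axis, 0 at the left edge) of the summed ligands (filled) and of the receptor (open) for 16 ligand and receptor pairings, with replicate 2 (circles) above replicate 1 (squares) and a line joining ligand and receptor of 1 library. Cxcl12 with Ackr3 and Cx3cl1 with Cx3cr1 are the pairings in which both partners are detected and lie closest, whereas Ccr9, the receptor of Ccl25, is at 0.

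Detected and undetected genes lay beside each other in several clusters of the genome. With neighbours joined when less than 1000 kb apart, 40 of the 61 genes fell into 10 clusters and 21 stood alone. The receptor cluster of chromosome 9 that holds Ccr9, Cxcr6, Xcr1, Ccr1, Ccr3 and Ccr2 had no detected gene among these. The Ccl2 cluster of chromosome 11 (6 genes) and the Cxcl1 and Cxcl9 clusters of chromosome 5 (5 and 3 genes) also had none. In the neighbouring Ccl5 cluster of chromosome 11, Ccl9 and Ccl6 were detected, while Ccl3, Ccl4 and Ccl5 were not. The cluster of chromosome 4 held Ccl21a and Ccl27a and also 3 genes that were not detected, Ccl19, Ccl21b and Ccl27b.

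The second quantification, derived from raw reads and an index of transcripts, also detected 14 of the 61 genes. Of the 14 detected in the first, 13 had a higher mean TPM in the second, with a median ratio of second to first of 1.11 and a range of 0.906 for Ccl9 to 1.56 for Cx3cl1. At a mean of at least 0.5 TPM in either, only Ccl5 differed more than 3-fold. The leading transcript was the same in both for 8 of the 14, one of which, Ccl21a, has a single annotated transcript. In Ccrl2, Ccl27a, Ccl9, Cxcl16, Ccl25 and Cx3cr1 it was another. Ccrl2-201 held 53.0% ± 9.13 of Ccrl2 in the first quantification and 27.0% ± 0.664 in the second. Ccl27a, with 19 annotated transcripts, had its leader by mean share, Ccl27a-202, at 32.2% ± 7.32 in the first and at 0 in the second, where Ccl27a-205 held 22.0% ± 13.7. The leaders Cxcr4-201 (86.3% ± 19.4), Cx3cl1-201 (100% in both libraries) and Ackr4-204 (72.2% ± 9.14) were the same in both.

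**Figure D4:**
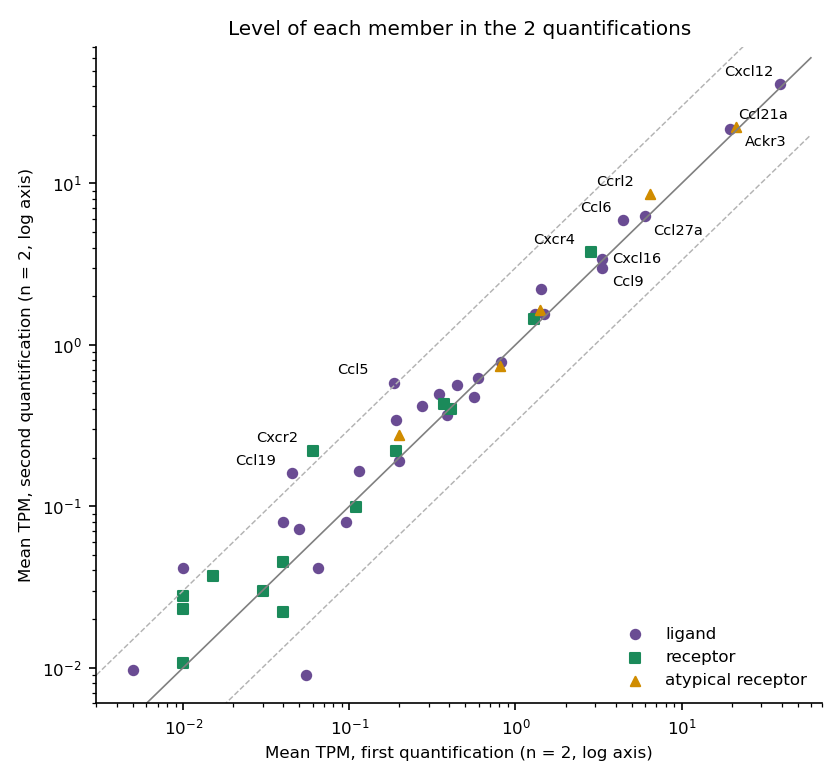
Mean TPM of n = 2 libraries in the first (x) and second (y) quantification, both on log axes, for 47 genes with a value above 0 in both; the solid line marks equal values and the dashed lines a 3-fold difference. Detected genes follow the solid line. Beyond the dashed lines lie 5 genes, of which Ccl5, just above the upper line, alone has a mean of at least 0.5 TPM in either quantification.

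The animals were compared gene by gene on rounded expected counts. An exact two-sided binomial test set each gene's counts against TMM-scaled library sizes, and p-values were adjusted (Benjamini-Hochberg) over the 13745 genes whose counts summed to 50 or more. The p-values set the reads of 1 library against those of the other and say nothing of conditions. Called means an adjusted p under 0.05 together with a ratio of 2-fold or more. None of the 19 chemokine and receptor genes tested was called, while 210 of all 13745 genes tested, 1.53%, were. At any fold, 4 of the 19 had an adjusted p under 0.05, beside 21.9% of all genes tested, and 8 of the 19 had an unadjusted p under 0.05, beside 31.7%. With edgeR's exact test at a common dispersion (a coefficient of variation of 0.113), none of the 19 was called, beside 1.03% of all genes, and 1, Ccl9, had an unadjusted p under 0.05, beside 4.24%. The 4 of 19 at any fold lie near the share of all genes. The median log2 ratio, replicate 2 over replicate 1, was -0.06 over the 19 and 0.000466 over all genes tested.

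Of the 4 genes past the adjusted threshold at any fold, Cxcl12 and Ccrl2 were higher in replicate 2 and Ccl9 and Cx3cr1 lower. The counts of Cxcl12 were 5456 in replicate 2 and 4992 in replicate 1, a log2 ratio of 0.23 (95% counting interval 0.18 to 0.29, adjusted p = 9.91e-15 by the exact binomial test). Ccrl2 had 378 counts in replicate 2 and 304 in replicate 1, a log2 ratio of 0.42 (0.20 to 0.64, adjusted p = 0.00147 by the same exact test). Ccl9 had 102 counts in replicate 2 and 166 in replicate 1, a log2 ratio of -0.60 (-0.97 to -0.24, adjusted p = 0.00639, exact test). Cx3cr1 had 115 counts in replicate 2 and 171 in replicate 1, a log2 ratio of -0.47 (-0.82 to -0.12, adjusted p = 0.0376, exact test). All 4 had an adjusted p of 1 under edgeR's exact test, whose dispersion was estimated from the same 2 libraries and so contains the difference tested.

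Ccl9 and Cx3cr1, genes of myeloid cells, were lower in replicate 2, and Ccl6 had a log2 ratio of -0.41 (-0.78 to -0.06) that missed the threshold (adjusted p = 0.0818, exact test). Ccr2, also a myeloid gene, had a log2 ratio of 0.52 (-0.13 to 1.20, adjusted p = 0.295, exact test). Macrophage markers, 9 of 10 detected, summed to 77.6 TPM in replicate 2 and 92.7 TPM in replicate 1, and platelet markers, 3 of 5 detected, to 18.4 and 26.7 TPM. Of the 9 macrophage markers tested, 3 were lower and none higher in replicate 2 at an adjusted p under 0.05 (exact test). Of all genes tested, 21.9% passed this threshold at any fold. None of the 9 macrophage markers was called. Their part in these differences was not tested. Beside the higher Cxcl12 count of replicate 2, fibroblast markers, 6 of 6 detected, summed to 293 TPM in replicate 2 and 288 TPM in replicate 1. Their summed counts went the other way, 27348 in replicate 2 and 29085 in replicate 1. Of the 6, 3 were higher and 1 lower in replicate 2 at an adjusted p under 0.05 (exact test), beside the same 21.9% of all genes. Blood endothelium markers, 5 of 5 detected, summed to 197 TPM in replicate 2 and 229 TPM in replicate 1, and mural cell markers, 6 of 6 detected, to 195 and 214 TPM. Their part was not tested either. With scaling by the spike-ins, the median of all genes moved to 0.24, and Ackr3, Cxcr4 and Ccr1 then lay above 0. Relative to that median they stayed below it, and Ccl9, at -0.35, and Cx3cr1, at -0.22, stayed below 0 but no longer passed (adjusted p = 0.0793 and 0.279, exact test).

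**Figure D5:**
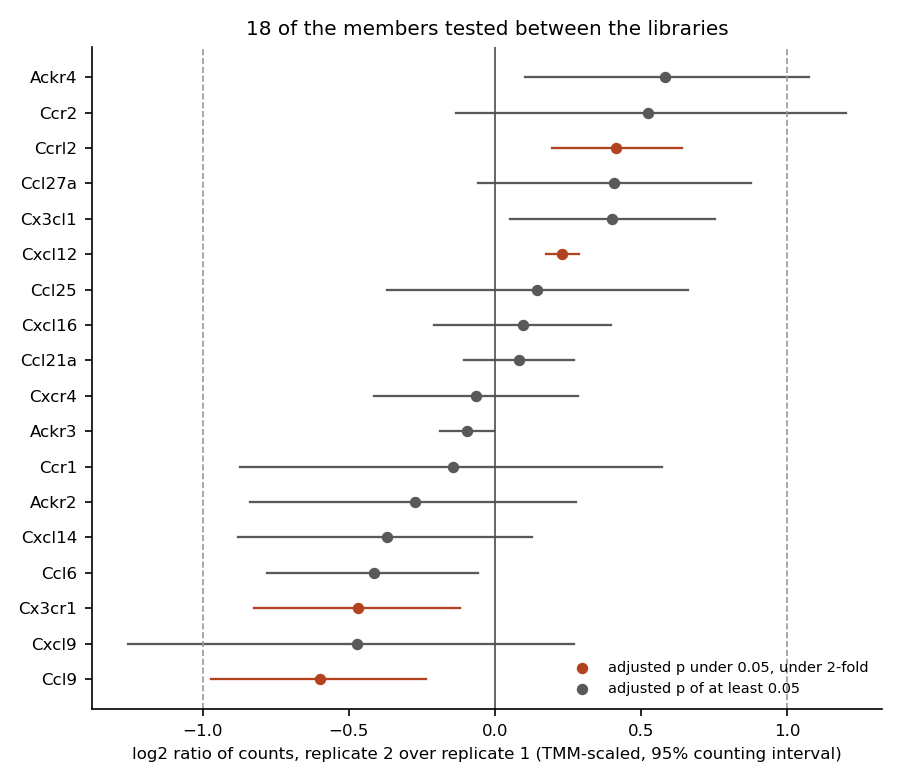
Log2 ratio of counts, replicate 2 over replicate 1, with 95% counting intervals for 18 of the genes whose counts summed to 50 or more; red marks an adjusted p under 0.05 (exact binomial test) and dashed lines a 2-fold ratio. All 18 points lie between the dashed lines, from -0.60 for Ccl9 to 0.58 for Ackr4.

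A list of 44 genes for chemokine transport and signalling, which are not among the 61, was set beside the family. It includes the platelet chemokines Pf4 and Ppbp and was chosen with earlier results of these data known. Of the 44, 33 were detected, against 11042 of 22015 nuclear protein-coding genes. Their median mean TPM was 6.58, against 0.115 over the 61 genes and 1.17 over nuclear protein-coding genes. The highest were Rgs5, a regulator of G-protein signalling of mural cells, with 103.49 TPM in replicate 2 and 110.95 TPM in replicate 1, and Gnai2, an inhibitory G-protein subunit through which chemokine receptors signal, with 89.4 and 95.7 TPM. Rac1, a GTPase of cell migration, had 86.6 TPM in replicate 2 and 91.9 TPM in replicate 1, and Mif, a cytokine that also binds Cxcr4, had 72.9 and 88.1 TPM. The lowest were Rgs1, a regulator of lymphocyte receptors, with 0.15 TPM in replicate 2 and 0.06 TPM in replicate 1, and the endothelial selectin Sele, with 0.22 and 0.20 TPM. None of the 40 listed genes that were tested was called. At any fold 1 was higher and 7 were lower in replicate 2 at an adjusted p under 0.05, near the 21.9% of all genes, and the median log2 ratio was -0.04.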

How the data were processed

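Total RNA of 2 mouse hearts was measured. Per the description files deposited with the tables, the authors used mm10 and annotation M21 for both libraries. The programs they ran were not given in the sources used here. Of 2 quantifications per library, the first holds the authors' expected counts, with shared reads divided by estimate, and TPM with posterior bounds, per the file headers. The authors' deposited percent column gives a transcript's share of its gene's TPM; the shares here were recomputed from TPM. The second holds deposited estimated counts and TPM per transcript, summed here per gene. The reference is of C57BL/6J, and the effect of CAST mismatches was not measured. Rows named by a number, 1.01e-05% and 5.12e-06% of counts in replicates 2 and 1, and the spike-ins (0.427% and 0.532%) were left out of tests. Counts were rounded and tested with scipy 1.17.1 after edgeR 4.0.16 TMM scaling, adding 0.5 to each count for ratios. DESeq2 1.42.0 size factors were an alternative. The comparison was tested on simulated counts that vary by counting error only. Such counts cannot show its rate of false calls on these data. Replicates have separate biosamples but 1 donor identifier, and were treated as 2 animals. The binomial p-values allow for counting error only and measure no spread between animals. Intervals cover counting error only: without molecular identifiers, reads may be copies of 1 molecule. The macrophage and lymphatic lists share Lyve1, and the platelet and signalling lists share Pf4 and Ppbp. Members and lists were chosen with earlier results of these data known. One member is not reported here. Every other member is named; those with a mean TPM of at least 1 in either quantification have values in both libraries. The ligands Ccl24, Ccl2 and Cxcl9 and the receptor Ackr2 are the highest of the others. Values of further members were chosen after they were seen.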

Additional observations from a re-analysis of the deposited data

How the results depend on the processing

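The 14 detected genes became 9 at a TPM of at least 2 and stayed within 1.5 times under the other thresholds and scalings tried (14 to 19), with 14 to 15 from 1 library alone in each quantification. No member was called under any scaling, count minimum, quantification or test tried; over all genes the count was 334 at a summed count of at least 10, against 210, and 142 to 313 under the others. The ligand sum of 84.4 TPM was 92.3 in the second quantification, 88.4 by posterior means and 216 over nuclear protein-coding genes only, with 82.2 to 86.7 in single libraries. The receptor sum, atypical ones included, of 36.1 TPM was 41.6, 38.3 and 92.3 under the same settings, with 36.0 to 36.3 in single libraries. The leading transcript was kept for 8 of 14 genes in the second quantification and for 10 to 13 in single libraries; the cause was not tested. With scaling by library totals 6 of 19 members had an adjusted p under 0.05 at any fold, beside 3869 of all 13745 genes, and with the spike-ins 9, all higher in replicate 2, beside 7952 of all genes and a median of all genes moved to 0.24. No paired analysis was possible because there is 1 group. Genes at 3 counts or fewer in both libraries, 28 of 61, cannot be ranked at this depth.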

Other observations

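Rows named Ccl19, Ccl21a, Ccl21b, Ccl21c or Ccl27 lie on unplaced scaffolds of the build. There are 7 such rows in the first quantification and none in the second, so they were not counted among the 61 genes. Apart from the Ccl21b row described above, a row named Ccl27 on JH584293.1 had 1.52 counts in replicate 2 and 6.79 in replicate 1, and the other 5 had none in either library. Ccl19 shares 39.3% and Ackr1 13.6% of its 100-base windows with other annotated genes, Ackr1 with Cadm3. In all, 11 of the 61 genes share at least 1 such window with a gene outside their own, and Ccl21b shares all 303 of its windows.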
